A study of Rattus norvegicus with 15 samples.

Results

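Adipogenic differentiation medium was compared with untreated culture in mesenchymal stem cells of rat bone marrow, a stromal population able to form fat, bone and cartilage. The comparison used 6 of the 15 RNA sequencing libraries of the study: 3 Adi libraries from cells kept in adipogenic medium and 3 Control libraries from untreated cells, both from bone marrow of Sprague-Dawley rats, an outbred strain. The other groups, with 3 libraries each, were Adi_ASA (adipogenic medium with aspirin), Ost (osteogenic medium) and Ost_ASA (osteogenic medium with aspirin). All cells were at passage 3 to 6 and were grown to confluence before treatment. The sources used here do not give the make-up of the medium, the time in it, or whether replicates came from separate rats or separate dishes. The p-values therefore rest on a spread among libraries that may be technical, and medium and time in culture cannot be told apart. Members were the rows of the count table with a rat Ensembl gene identifier and enough reads to be tested, which were 14210 of 32883 such rows, in a table of 34480 rows. The Adi libraries held 19094319 to 20605435 counted reads and the Control libraries 19605404 to 22817858.

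In the marrow, stromal cells that turn to fat are driven by the nuclear receptor PPAR gamma together with C/EBP factors. Those factors switch on genes for fatty acid uptake, triglyceride storage and secreted adipokines, while programmes of matrix production, bone formation and cell division are usually turned down. Adipogenic media commonly hold a glucocorticoid and insulin, which act on many other genes as well. The table gives identifiers without symbols, and the gene table used as a reference pairs none of them with one. Identifiers stand in for names here, gene functions are not stated, and the markers of fat, bone, blood or vessel cells that would check the labelled cell type were not analysed here. In such bulk libraries, fewer cells of a type and less RNA per cell cannot be told apart.

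The Adi libraries differed from Control over a large part of the transcriptome, mostly by small amounts and in both directions. Of the 14210 genes tested, 3624 were higher and 3490 lower in Adi than in Control (edgeR quasi-likelihood test, Benjamini-Hochberg adjusted p under 0.05). These were 25.5% and 24.6% of the genes, 50.1% together. The median change was 0.45 on the log2 scale among genes that rose and -0.57 among genes that fell, while genes that were not called had a middle range of -0.14 to 0.12 (quartiles). A change of at least 2-fold was estimated for 712 genes that rose (5.01% of those tested) and 900 that fell (6.33%). When the test itself asked for a change of more than 2-fold (glmTreat), 383 genes rose and 420 fell. The 3 Adi and the 3 Control libraries did not overlap for 8326 genes, or 58.6%.

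**Figure D1:**
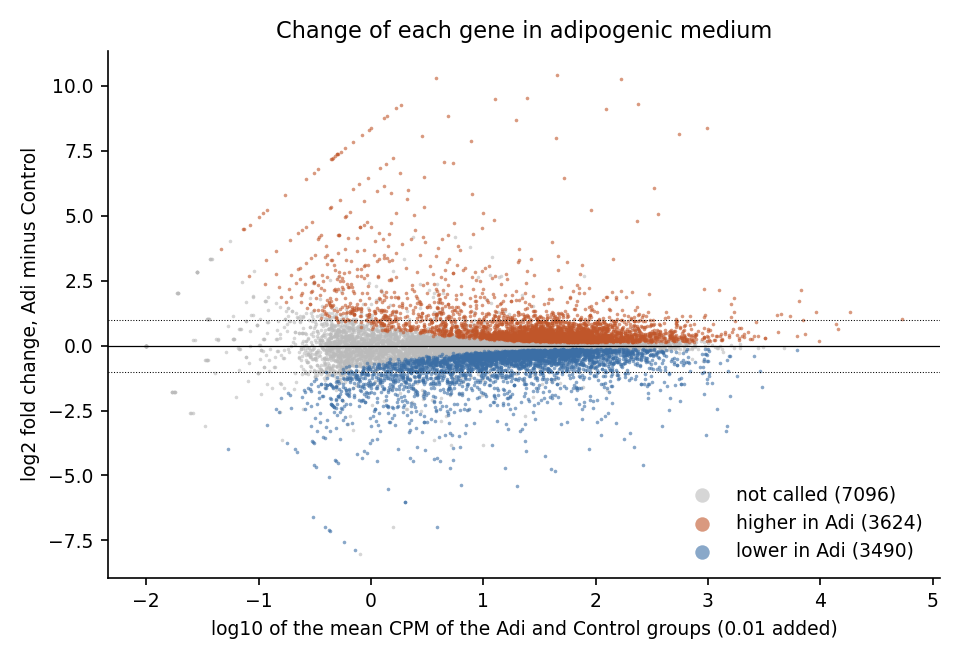
Change of each of the 14210 genes (vertical axis, log2 fold change, Adi minus Control) against its mean level (horizontal axis, log10 of CPM, the count scaled to a fixed library size, with 0.01 added). Points in orange rose (3624), points in blue fell (3490) and grey points were not called; dotted lines mark 2-fold changes. The largest changes lie above the zero line. Straight diagonal rows at the left are genes with 0 or few counts in Control (above the zero line) or in Adi (below it).

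The balance of rises and falls depended on the scale. The values above use TMM factors, which set the bulk of genes to no change, and these were 0.911 to 0.944 in Adi and 1.05 to 1.07 in Control. With library totals alone, the whole distribution shifted by -0.19 on the log2 scale and the calls became 2035 higher and 5883 lower, or 25.7% higher against 50.9%. At 2-fold or more, library totals gave 545 rises and 1243 falls, against 712 and 900 with TMM. Changes, small ones above all, are therefore relative to the bulk of genes, and no amount of RNA per cell was measured.

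Rises outnumbered falls among the largest fitted changes over all genes. Among genes measured in every library of both groups, falls outnumbered rises at 2-fold, 4-fold and 8-fold, and few genes of either direction reached 16-fold. At thresholds of 1.5-fold and 2-fold more genes had fallen than risen, with 1351 rises and 1702 falls at 1.5-fold. At 4-fold the counts were near each other, at 281 rises and 264 falls. At 8-fold 158 genes had risen and 93 had fallen, at 16-fold 105 and 38, and at 64-fold 47 and 9. Some of these folds rest on genes with 0 counts in a whole group. With such genes set to the bound that 3 counts over the group give, the counts were 95 rises and 34 falls at 16-fold, and 29 and 3 at 64-fold. Among the 12507 genes at or above the filter's level (0.485 CPM) in every Adi and every Control library, 3327 rose and 3170 fell (51.9% called). At 2-fold or more 424 of them rose and 596 fell, at 4-fold 83 and 118, at 8-fold 26 and 30, and at 16-fold 10 and 7. The other 95 rises and 31 falls of at least 16-fold were in genes under that level in at least 1 of the 6 libraries, so the counts over all genes depend on which genes the filter let in.

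**Figure D2:**
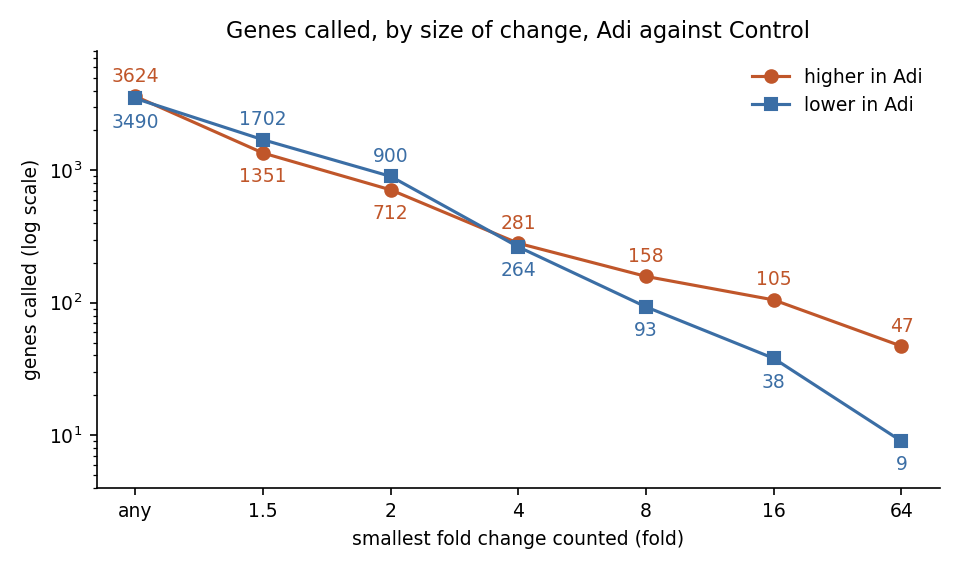
Number of genes called (vertical axis, log scale) whose change was at least the fold on the horizontal axis, for genes higher in Adi (orange circles) and lower in Adi (blue squares). Falls outnumber rises at 2-fold (712 rises, 900 falls), and at 4-fold the counts are near each other (281 rises, 264 falls). From 8-fold on (158 and 93) rises clearly outnumber falls, and many of these genes were under the filter's level in at least 1 library.

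The large rises lay mostly in genes close to silent in Control: the 105 genes at least 16-fold higher had a median of 2.20 CPM in Adi and 0.0315 CPM in Control. There were 48 called genes at 1 CPM or more in Adi and under 0.1 CPM in Control, and 11 in the reverse position. At a higher level, 18 genes were at 10 CPM or more in Adi and under 1 CPM in Control, with a median log2 fold change of 7.45, and 5 genes were under 1 CPM in Adi and at 10 CPM or more in Control, with a median of -4.41. The 18 genes summed to 1234, 1258 and 1708 RPM (reads scaled to library totals, without TMM) in Adi replicates 1, 2 and 3, against 6.53, 8.59 and 9.03 RPM in Control. Each Adi sum was more than 100 times each Control sum. The 5 genes summed to 3.46, 2.85 and 2.43 RPM in Adi, against 96.6, 96.5 and 72.5 RPM in Control. At a still higher level, 8 genes were at 100 CPM or more in Adi and under 10 CPM in Control, the highest at 1954 CPM in Adi, and 0 genes were in the reverse position. Of genes with 0 counts in a whole group, 29 were called among 44 read in Adi alone, and 7 among 19 read in Control alone. These genes were picked by their levels in the same libraries, so the sums describe them and carry no test. A gene could also enter the test through the other treated groups: of 858 tested genes at the filter's level in neither all Adi nor all Control libraries, 14.8% were called.

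The genes named are those with the highest and the lowest fitted log2 fold changes, 2 each way, among the 5768 called genes whose groups did not overlap and whose higher group averaged at least 5 CPM. ENSRNOG00000001001 had 80.1, 84.0 and 108.0 CPM in the Adi libraries, against 0, 0.0467 and 0.143 CPM in the Control libraries. All Adi libraries were far above Control, where the gene had 4 reads in all, and Adi replicate 3 was the highest. The log2 fold change was 10.42 (SE 0.30, edgeR adjusted p = 5.16e-09). The ratio of counts pooled over each group, scaled by TMM, was 1512-fold, and counting error alone gave a 95% range of 590.3 to 5553. That range is wider than the SE would give, so the SE understates the uncertainty at so few Control reads. With so few Control reads the log2 value depended on single libraries, being 11.66 when Control replicate 3 was left out and 9.82 when Control replicate 1 was. In Adi_ASA the gene had 160.4, 152.3 and 142.6 CPM, each above all Adi libraries, and it had 0 counts in all Ost and Ost_ASA libraries.

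ENSRNOG00000009686 was at 5.85, 6.70 and 10.4 CPM in Adi and at 0 counts in each Control library, which allows up to 3 counts over the group. The rise was at least 170.5-fold (edgeR adjusted p = 4.71e-10). Its place among the rises rests on a fitted value over 0 counts, and the bound lies below the log2 fold change of 10.25 fitted for a gene with reads in both groups. It had 12.8, 12.9 and 10.1 CPM in Adi_ASA and 1 read over the 6 osteogenic libraries. Both named rises were thus read in adipogenic medium, with and without aspirin, and all but absent from the osteogenic libraries.

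ENSRNOG00000037456 had 0, 2 and 1 reads in Adi, or 0, 0.110 and 0.0533 CPM, against 6.95, 7.47 and 8.50 CPM in Control. The log2 fold change was -6.97 (SE 0.53, edgeR adjusted p = 1.66e-09). By pooled counts the level was 139-fold lower, with 47.2 to 676 as the 95% range from counting error. Here too the SE is narrower than that range and understates the uncertainty. Leaving out single libraries gave log2 values of -7.84 (without Adi replicate 2) to -6.45 (without Adi replicate 1). It was also low in the other treated groups, with 4 reads in Adi_ASA, 2 in Ost and 4 in Ost_ASA. ENSRNOG00000036672 fell to 1.13, 0.769 and 0.906 CPM in Adi, against 40.7, 40.4 and 36.7 CPM in Control (log2 fold change -5.39, SE 0.15, edgeR adjusted p = 1.59e-16). It averaged 1.00 ± 0.206 CPM in Adi_ASA, 1.81 ± 0.163 CPM in Ost and 2.50 ± 0.127 CPM in Ost_ASA (SD, n = 3). Both named falls were thus lower in all 4 treated groups than in Control, with edgeR adjusted p-values of at most 2.04e-09 for the first and 1.77e-16 for the second. These contrasts share the Control libraries.

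**Figure D3:**
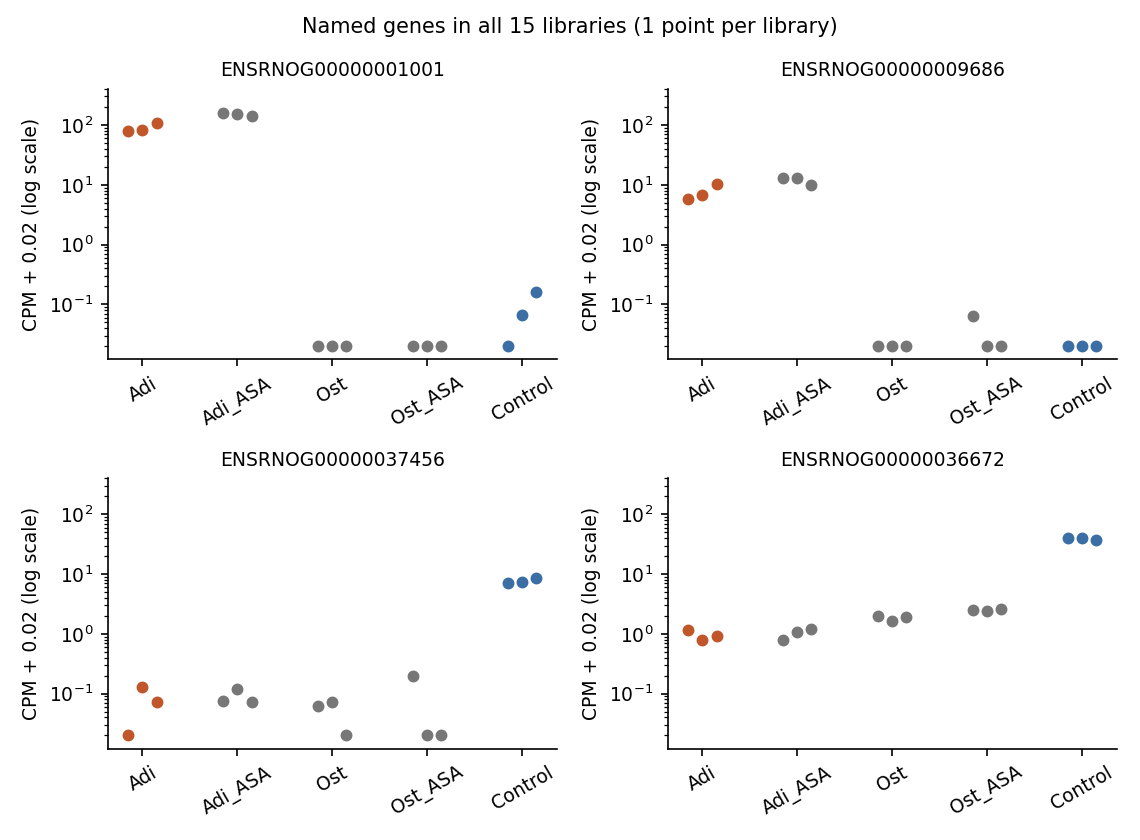
Level of the 4 named genes in all 15 libraries (vertical axis, CPM with 0.02 added, log scale; 1 point per library), Adi in orange, Control in blue and the other groups in grey. ENSRNOG00000001001 and ENSRNOG00000009686 are read in Adi and Adi_ASA and lie at or near 0 elsewhere, whereas ENSRNOG00000037456 and ENSRNOG00000036672 are high in Control alone.

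Reads were concentrated on fewer genes in Adi than in Control. The 10 most-read genes of each library took 17.7% to 18.4% of its reads in Adi, against 10.9% to 11.1% in Control. The groups did not overlap, and the means were 18.1% ± 0.373 and 11.1% ± 0.123 (SD, n = 3 each; exact permutation test, two-sided, p = 0.1, the smallest that 3 libraries against 3 allow). It took 389, 392 and 368 genes to hold 50% of the reads in Adi, against 561, 538 and 561 in Control (exact permutation test, p = 0.1, as for all 7 such measures, with an adjusted p of 0.1). Reads were not divided by gene length, so the order of genes is one of reads and not of transcripts. At an equal depth of 19094319 reads, 17128, 17238 and 17016 identifiers had at least 1 read in Adi, against 17317, 17337 and 17650 in Control, and the difference of the means was -307.3, or -199.7 without Control replicate 3.

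**Figure D4:**
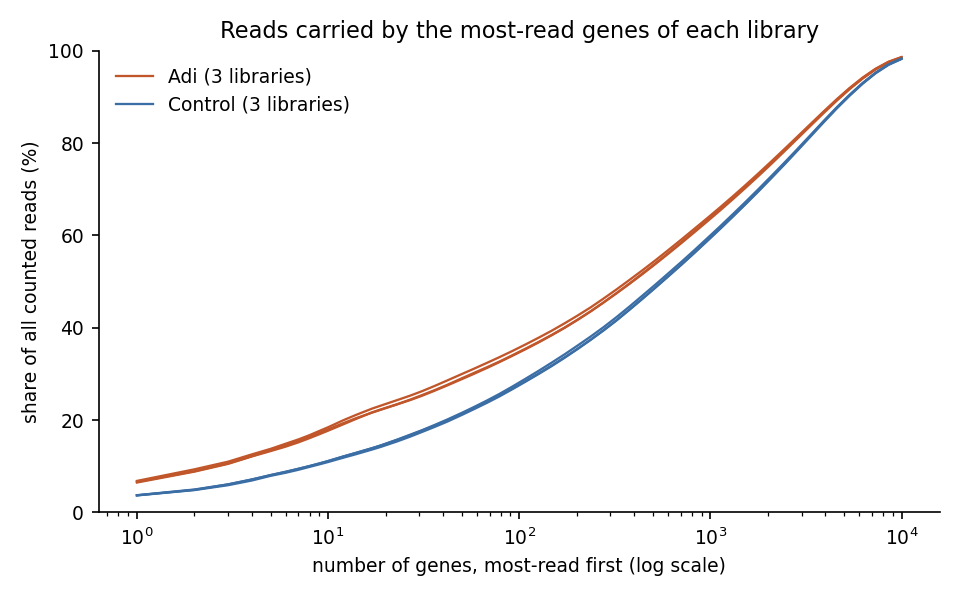
Share of all counted reads (vertical axis, percent) held by the most-read genes of a library, counted from the most-read on (horizontal axis, log scale), with 1 line for each of 3 Adi (orange) and 3 Control (blue) libraries. The Adi lines lie above the Control lines, with about 18% against 11% of reads in the first 10 genes.

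In shares of library totals, a small number of genes carried the gain, and many genes carried the loss. Between the group means, genes with more reads in Adi gained 16.2% of all reads, and genes with fewer lost 16.1%. Such shares have a fixed sum, so both totals must nearly match and a gain in some genes lowers the share of the others. How much of the loss arose this way was not tested. Of the 100 largest gains 100 were called after TMM, and of the 100 largest losses 89. Just 10 genes accounted for 50.7% of the gain, whereas the 10 largest losses made up 12.8% of the loss and it took 218 genes to reach 50%. All 10 gaining genes were at 2478 CPM or more in Control, and their log2 fold changes were 0.63 to 2.14. They held 17.2%, 17.3% and 18.3% of the reads in Adi, against 9.35%, 9.27% and 9.42% in Control. The single most-read gene was the same in both groups, with 6.64% of the reads in Adi and 3.71% in Control (log2 fold change 1.03, SE 0.08, edgeR adjusted p = 5.23e-10), and it alone was 18.1% of the gain. The 10 genes with the largest losses held 1.30%, 1.27% and 1.11% of the reads in Adi, against 3.14%, 3.48% and 3.24% in Control. Of the 100 most-read genes of each group, 73 were shared. The genes of largest fold change contributed little by comparison, since the 105 genes at least 16-fold higher held 0.543%, 0.586% and 0.768% of the reads in Adi and 0.00737% to 0.00807% in Control.

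The direction of change differed with the level of the gene. Among 84 genes averaging 1000 CPM or more over all 15 libraries, 60 rose and 13 fell, and from 100 to 1000 CPM 813 rose and 391 fell. Between 10 and 100 CPM the counts were 2036 and 1805, and between 1 and 10 CPM they turned to 543 rises and 1032 falls. Under 1 CPM 172 rose and 249 fell. The level includes the Adi libraries, so a rise itself moves a gene toward a higher class and a fall toward a lower one. How much of the pattern arose this way was not tested. With library totals alone the class from 100 to 1000 CPM turned round, to 440 rises and 718 falls, as did that from 10 to 100 CPM, to 1027 and 3327, while the class above it kept 47 rises and 22 falls. Precision also followed the level. The standard error on the log2 scale had a median of 0.46 under 1 CPM, 0.20 from 1 to 10 CPM and 0.08 from 10 to 100 CPM, and the share of genes called was 27.3%, 42.0% and 54.4% in these classes. A called gene had a median absolute log2 change of 1.87 under 1 CPM and of 0.39 from 10 to 100 CPM.

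Libraries of a group were close to each other beside the distance between groups. Any pair of Adi libraries differed in the placing of 3.56% to 3.99% of their reads and any pair of Control libraries in 3.06% to 3.83%, while an Adi and a Control library differed in 15.5% to 18.2%. For 8920 genes averaging 10 CPM or more, the median absolute log2 difference was 0.088 to 0.092 within Adi, 0.080 to 0.084 within Control and 0.226 to 0.268 between them. The first principal component of the 6 libraries held 72.3% of the variance and placed the Adi libraries at 45.1, 44.4 and 55.0 and the Control libraries at -47.7, -49.7 and -47.1.

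Adi replicate 3 lay farthest from Control. Of the 712 genes at least 2-fold higher in Adi, 426 (59.8%) were highest in replicate 3, against 141 in replicate 1 and 145 in replicate 2, and of the 900 at least 2-fold lower, 427 (47.4%) were lowest there. The median distance from the Control mean was 1.47, 1.48 and 1.66 on the log2 scale for the risen genes in Adi replicates 1, 2 and 3, and -1.43, -1.46 and -1.57 for the fallen ones. In sets chosen without replicate 3 it was again the farthest, at 1.56, 1.57 and 1.71 for rises and -1.45, -1.50 and -1.55 for falls. Without that library 3162 genes rose and 3080 fell. The strongly changed genes also varied more among libraries than the rest: at 10 CPM or more, the median SD of log2 CPM over the 290 risen genes was 0.156 in Adi and 0.135 in Control, and over the 291 fallen genes 0.155 and 0.094, against 0.079 and 0.070 over all genes of that level. The level here is the mean over all 15 libraries, so a changed gene can be lower in the group where its spread was taken. The sets are thus not matched for level within a group. They were also chosen on the same libraries, so the spreads are a description.

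The genes called between Adi and Control were also read in the other treated groups, whose distances below are from the same Control libraries. The sets of genes below were chosen by their values in the Adi and Control libraries. Groups left out of that choice can lie nearer Control for this reason alone, so Adi_ASA and Adi are not on an equal footing here. The 712 risen genes lay at a median of 1.38 to 1.52 above the Control mean in Adi_ASA, inside or below the Adi range, and at 0.66 to 0.82 in the 6 osteogenic libraries. There the genes were widely spread, with lower quartiles of -0.41 to -0.33 and upper quartiles of 2.44 to 2.65. The 900 fallen genes lay at -1.34 to -1.28 in Adi_ASA, closer to Control than any Adi library, and at -1.67 to -1.57 in the osteogenic libraries. In the latter they too were widely spread, with lower quartiles of -3.22 to -3.2 and upper quartiles of -0.37 to -0.32. These genes held 4.07% to 4.34% of the reads there, against 1.81% to 2.14% in Adi and 7.08% to 7.59% in Control. The 10 genes of largest gain held 14.97% to 15.7% of the reads in Adi_ASA, below every Adi library, and 3.46% to 4.39% in the osteogenic libraries, below every Control library. The 18 genes at 10 CPM or more in Adi and under 1 CPM in Control summed to 1966 to 2350 RPM in Adi_ASA, above the 1234 to 1708 RPM of Adi. Differences between Adi_ASA and Adi were not tested. In Ost they summed to 221.0 to 240.5 and in Ost_ASA to 270.4 to 281.8, with 8 or 9 of the 18 at 1 CPM or more in each library. The 5 genes in the reverse position summed to 3.59 to 4.28 in Adi_ASA, 3.37 to 4.08 in Ost and 3.63 to 4.29 in Ost_ASA, all far below the 72.5 to 96.6 of Control. Against the shared Control libraries, 6437 genes were called in Adi_ASA (45.3%), 9868 in Ost (69.4%) and 9907 in Ost_ASA (69.7%), beside the 7114 of Adi.

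**Figure D5:**
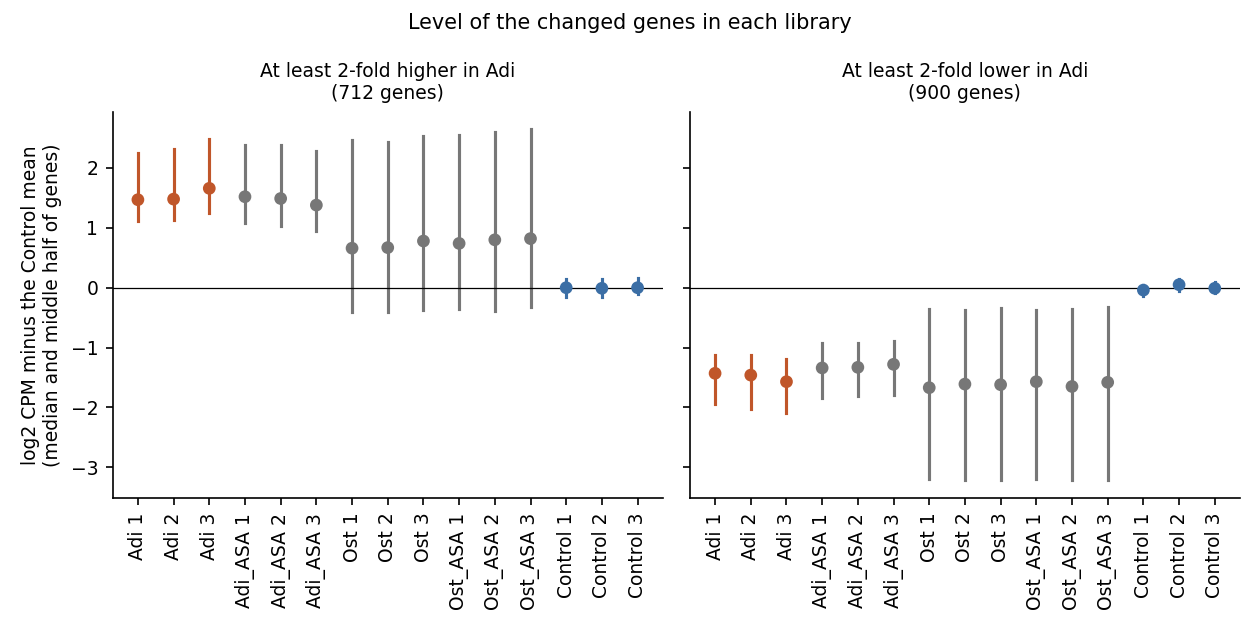
Level of the 712 genes at least 2-fold higher in Adi (left) and the 900 at least 2-fold lower (right) in each of 15 libraries, as log2 CPM minus the Control mean (vertical axis; points are medians over genes and bars the middle range between quartiles). Adi (orange) and Adi_ASA lie together, at 1.38 to 1.66 on the left, and the osteogenic libraries there spread widely around medians of 0.66 to 0.82.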

How the data were processed

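RNA sequencing reads were counted per gene by the authors, and the deposited table holds raw counts, whole numbers that were not normalised. The tools named are HTSeq 0.9.1, HISAT2 2.0.4 and DESeq 1.18.0, with the build Rnor_6.0, per the submitters' processing notes. The sources used here do not give their roles, the annotation release or the strand setting, so values of overlapping or near-identical genes are uncertain. The 6 libraries held 19094319 to 22817858 counts, which limits precision for genes of few reads. Column names matched sample titles, which gave groups.

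Rows were kept by filterByExpr over 5 groups (10 counts at the median depth, 0.485 CPM, in at least 3 libraries; the closest row kept had 0.488 CPM and the closest dropped 0.485 CPM in its third-highest library). All 15543 rows kept, 14210 of them with Ensembl identifiers, and all 15 libraries entered 1 edgeR 4.0.16 model (R 4.3.3, TMM, robust glmQLFit, glmQLFTest), with adjustment over all rows and a threshold of 0.05. The standard error is the log2 fold change divided by the square root of F, and it is too small where a group has few reads. CPM values are scaled by TMM, and shares and RPM by library totals. Log2 CPM used a prior count of 2. Folds against few counts are ratios of counts pooled over a group and scaled by TMM, so they differ from the fitted log2 values. They have exact 95% binomial intervals for counting error only. The model was tested on 1 simulated data set, with far fewer changed genes than were called in the data. Of 50 genes changed by each fold, 9 were called in the right direction at 1.25-fold and 30 at 1.5-fold. At 2-fold 44 were called and at 4-fold 49, with 10 false calls in 15399 rows. Small changes were thus often missed in the simulation. With more genes changed the adjusted threshold is less strict, so these rates need not hold for the data.

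The rule for genes to name asked for symbols; 0 of 34480 rows could be paired (reference assembly GRCr8), so the 2 highest and 2 lowest fitted log2 fold changes are given by identifier, and 40 prepared gene lists were not used. The rule, the members and the lists were chosen with earlier results of these data known. The measures of read concentration, the level classes, the choice of sets without an Adi library, glmTreat and scaling by library totals were added after seeing the data. Alternatives were RLE factors, DESeq2 1.42.0, other filters, the 6 libraries alone, a replicate block and leaving out each library. Replicates were distinct libraries, since chi-square over its degrees of freedom was 6.79 to 13.0 in every pair.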

Additional observations from a re-analysis of the deposited data

Results flagged for a closer look

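Signal also appeared in rows of the table outside the comparison, which carry a name of another kind than an Ensembl identifier and for which the sources used here give no origin. Of 1333 such rows tested, 186 were higher and 303 lower in Adi than in Control (edgeR adjusted p under 0.05), which is 36.7% of them, against 50.1% of the Ensembl rows. At least 2-fold changes made up 114 rises and 148 falls, and at least 16-fold changes 15 and 8. What these rows are was not tested.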

How the results depend on the processing

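The count of called genes stayed between 6242 and 7918 under the 14 alternatives that recompute it, against 7114. With library totals in place of TMM, 2035 genes rose and 5883 fell. Without a filter on low counts, 165 genes rose and 88 fell at least 16-fold, among 21979 rows tested. With glmTreat, 383 rose and 420 fell by more than 2-fold. The replicate block gave 6885 calls, against 7073 for the same 6 libraries without it. The same-numbered Adi and Control libraries did not deviate together (correlations -0.015 to 0.027). These correlations over all rows tested gave no sign of pairing by number, but they cannot show that there was none. The named genes kept their direction and their calls under all 15 alternatives, with edgeR or DESeq2 adjusted p of at most 2.79e-06; with single libraries left out the log2 fold change was 9.82 to 11.66 for ENSRNOG00000001001 and -7.84 to -6.45 for ENSRNOG00000037456. Leaving out each library in turn gave 6242 to 6612 calls, and 102 to 114 rises and 38 to 52 falls of at least 16-fold; the share of reads in the 10 most-read genes differed by 6.80 to 7.17 percentage points. Genes under 1 CPM are limited by depth: 25.4% of them were called with a change of at least 2-fold and 27.3% with any.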
